A study of Mus musculus with 4 samples.

Results

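P2Y receptors are G protein-coupled receptors for extracellular nucleotides, and ectonucleotidases are the surface enzymes that break those nucleotides down to adenosine. The mRNA levels of 10 such mouse genes were examined: *P2ry12*, *P2ry13*, *P2ry6*, *P2ry14*, *P2ry1* and *P2ry2* among the receptors, the adenosine A1 receptor gene *Adora1*, and the enzymes *Entpd1*, *Entpd2* and *Nt5e*. The genes were chosen by name for their role, with earlier results of these data known. Every probe whose gene name on the array equals 1 of the 10 was used. They are 10 of 30222 gene names on the array. This gave 10 probes of 39429, 1 for each gene, and 10 of the 10 probes were well above background on all 4 arrays.

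Gene expression had been measured in slices of the lumbar spinal cord of male ICR mice, an outbred strain, that were 5 to 6 weeks old. All mice had a partial sciatic nerve ligation (PSL) of the right hindlimb, a model of neuropathic pain, and were examined on day 7 after the injury. Sham+PSL mice kept their adrenal glands after a sham operation, and ADX+PSL mice had been adrenalectomized, which removes the source of circulating corticosterone, and drank saline. Each operation was sampled at 2 zeitgeber times, ZT10, when glucocorticoid secretion is at its height in sham-operated mice and which falls late in the light phase, and ZT22, late in the dark phase, when it has declined. Each of these 4 conditions was measured on 1 array, and uninjured mice were not analysed here. The number of mice behind each RNA and the side of the cord are not given in the sources used here. With 1 array per condition no difference between these arrays had a replicate check, so no p-value is given. By quantitative PCR with replicates, the paper reported higher *P2ry6* and *P2ry12* mRNA on the ligated side of the cord. It described the effect of adrenalectomy on genes related to neuropathic pain on that side as negligible.

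Nucleotides leave cells through channels and vesicles and act on nearby cells before enzymes remove them. In the spinal cord, P2Y12 lets microglia sense ADP and move towards an injured site, whereas P2Y6 responds to UDP and drives phagocytosis. ENTPD1 and ENTPD2 remove phosphates from ATP and ADP, and NT5E turns AMP into adenosine, which acts through A1 receptors to dampen nociceptive transmission.

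The probes are 60-base oligonucleotides. The 3′ end of the probe is shown for those genes whose levels are described most fully, since each value below is the brightness of this 1 probe. Capitals mark the polyadenylation hexamer AATAAA, which a search of the 60 bases found in the probes of *P2ry6* and *P2ry14* and not in the other 8. The last 30 bases of each probe, 5′ to 3′, are:
P2ry12: cgaatcttaccataaaggacagacatgatg
P2ry13: ctccatttaatatggcacatttggtccgca
P2ry6: aagagagaAATAAAtgtgtttttgtggttg
P2ry14: tgtgccAATAAAcaagttgtcttcaaaacc
P2ry1: tggattgattgtgtataattgtctttgtat
Entpd2: ggagtcagctccatgcctacttgtaaaaaa
Nt5e: tttgttgcagtgaaacaatgccttcagttc
The array's design places the probes on the mm9 build. Those of *P2ry12* (chr3:59020598-59020657, minus strand), *P2ry13* (chr3:59012054-59012113, minus strand) and *P2ry14* (chr3:58918548-58918607, minus strand) are neighbours on chromosome 3, with 8544 bases between the starts of the *P2ry12* and *P2ry13* probes and 102050 between those of *P2ry12* and *P2ry14*. The *P2ry1* probe lies on the other strand of the same chromosome (chr3:60812600-60812659), 1792002 bases from that of *P2ry12*. The probes of *P2ry6* (chr7:108086149-108086208) and *P2ry2* (chr7:108145553-108145612), both on the minus strand, start 59404 bases apart. The *Adora1* probe is at chr1:136095833-136095892 on the minus strand. On the plus strand are the probes of *Entpd1* (chr19:40816008-40816067), *Entpd2* (chr2:25256752-25256811) and *Nt5e* (chr9:88266616-88266675). Exon annotation of that build was not used here.

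Of the receptor genes on chromosome 3, *P2ry12* and *P2ry13* were higher at ZT22 under both operations, and *P2ry1* was higher at ZT10 under both. The promoter of *P2ry14*, on the same chromosome, is not shown. The promoters of the other 3, *P2ry12*, *P2ry13* and *P2ry1*, are shown as the 250 bases before the transcription start in RefSeq (GRCm38.p6). They are at chr3:59262986-59263235 (minus strand), chr3:59210883-59211132 (minus strand) and chr3:61002535-61002784 (plus strand). Capitals mark the motifs that were found out of 4 searched on both strands: the E-box CACGTG, which clock proteins bind, the D-box TTATGNAA, the PU.1 site GAGGAAGT, and AGAACA, an arm of the palindromic element that steroid receptors such as the glucocorticoid receptor bind, which reads TGTTCT on the opposite strand. The sequences, 5′ to 3′ in the direction of transcription, are:
P2ry12: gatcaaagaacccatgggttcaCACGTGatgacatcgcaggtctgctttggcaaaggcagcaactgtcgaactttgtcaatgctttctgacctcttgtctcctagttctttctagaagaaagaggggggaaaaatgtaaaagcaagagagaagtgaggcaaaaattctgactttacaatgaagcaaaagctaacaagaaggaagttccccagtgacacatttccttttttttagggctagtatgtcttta
P2ry13: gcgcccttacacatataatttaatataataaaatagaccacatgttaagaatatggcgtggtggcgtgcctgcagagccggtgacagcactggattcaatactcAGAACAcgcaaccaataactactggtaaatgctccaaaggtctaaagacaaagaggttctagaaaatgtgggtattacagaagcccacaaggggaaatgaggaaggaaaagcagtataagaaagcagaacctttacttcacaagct
P2ry1: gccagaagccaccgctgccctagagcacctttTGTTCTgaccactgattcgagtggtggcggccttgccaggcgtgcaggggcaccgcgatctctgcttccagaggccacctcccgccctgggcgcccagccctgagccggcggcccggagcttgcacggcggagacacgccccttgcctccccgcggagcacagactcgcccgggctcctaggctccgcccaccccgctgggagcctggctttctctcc
The *P2ry12* stretch held the E-box at position -228 from the start, the *P2ry13* stretch held AGAACA at -146, and the *P2ry1* stretch held it on the opposite strand at -218. Among 32851 upstream stretches of the same length, 6.02% held the E-box, 3.07% the D-box, 2.44% the PU.1 site and 16.1% AGAACA. The E-box was also found before *P2ry2* and AGAACA before *P2ry14*, whereas the D-box and the PU.1 site were in none of the stretches of the 9 members that have one in the table. *P2ry6* has no entry there and was not searched. These matches are a description of letters, and binding was not measured here.

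Levels are the deposited intensities in arbitrary units, normalized so that the 4 arrays share 1 distribution with a median of 105, and a level is compared between arrays for 1 probe only. Where levels are summed over a list of genes, the brightest probes weigh most. The error of a log2 ratio given below combines the error that the scanner software assigns to the processed signals of the probe on the arrays compared. It covers the measurement of spots and not differences between mice. The software assigned close to 10% of the level to the brighter probes, so this error is not a spread seen between spots. For the 10 spots of *P2ry6* the assigned errors were averaged and not reduced for their number. Over the members the error of a log2 ratio lay between 0.20 and 0.28, with a mean of 0.22. Between 25655 and 27649 probes were well above background on an array, and 25009 on all 4. Of 6 glucocorticoid response genes, 1 was past 1.5-fold between the operations at ZT10, *Sgk1*, a glucocorticoid-induced kinase, with 3889 in sham+PSL mice at ZT10 and between 1453 and 1836 on the other 3 arrays. The median log2 ratio of ADX+PSL over sham+PSL for the 6 was -0.10 at ZT10, with a range from -1.08 to 0.29, and 0 of 6 were past 1.5-fold at ZT22. Of 8 circadian clock genes, a check of time, 7 were measured in each comparison over time. In sham+PSL mice 6 of 7 were higher at ZT10, with a median log2 ratio of 0.32 and a range from -0.29 to 1.02. In ADX+PSL mice 2 of 7 were higher at ZT10, with a median of -0.30 and a range from -1.04 to 0.34. *Per2*, *Nr1d1*, *Dbp* and *Ciart* were higher at ZT10 in sham+PSL mice and lower at ZT10 in ADX+PSL mice. *Per3*, *Nr1d2* and *Arntl* kept their direction, so the clock genes did not move as 1 set. Not all lists of other cell types were level between the arrays. The summed level of 5 genes of meningeal fibroblasts was 14523 and 12547 in sham+PSL mice and 4511 and 5009 in ADX+PSL mice, and that of 6 red blood cell genes was 18767 in sham+PSL mice at ZT22 and between 89810 and 135912 on the other arrays.

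**Figure D1:**
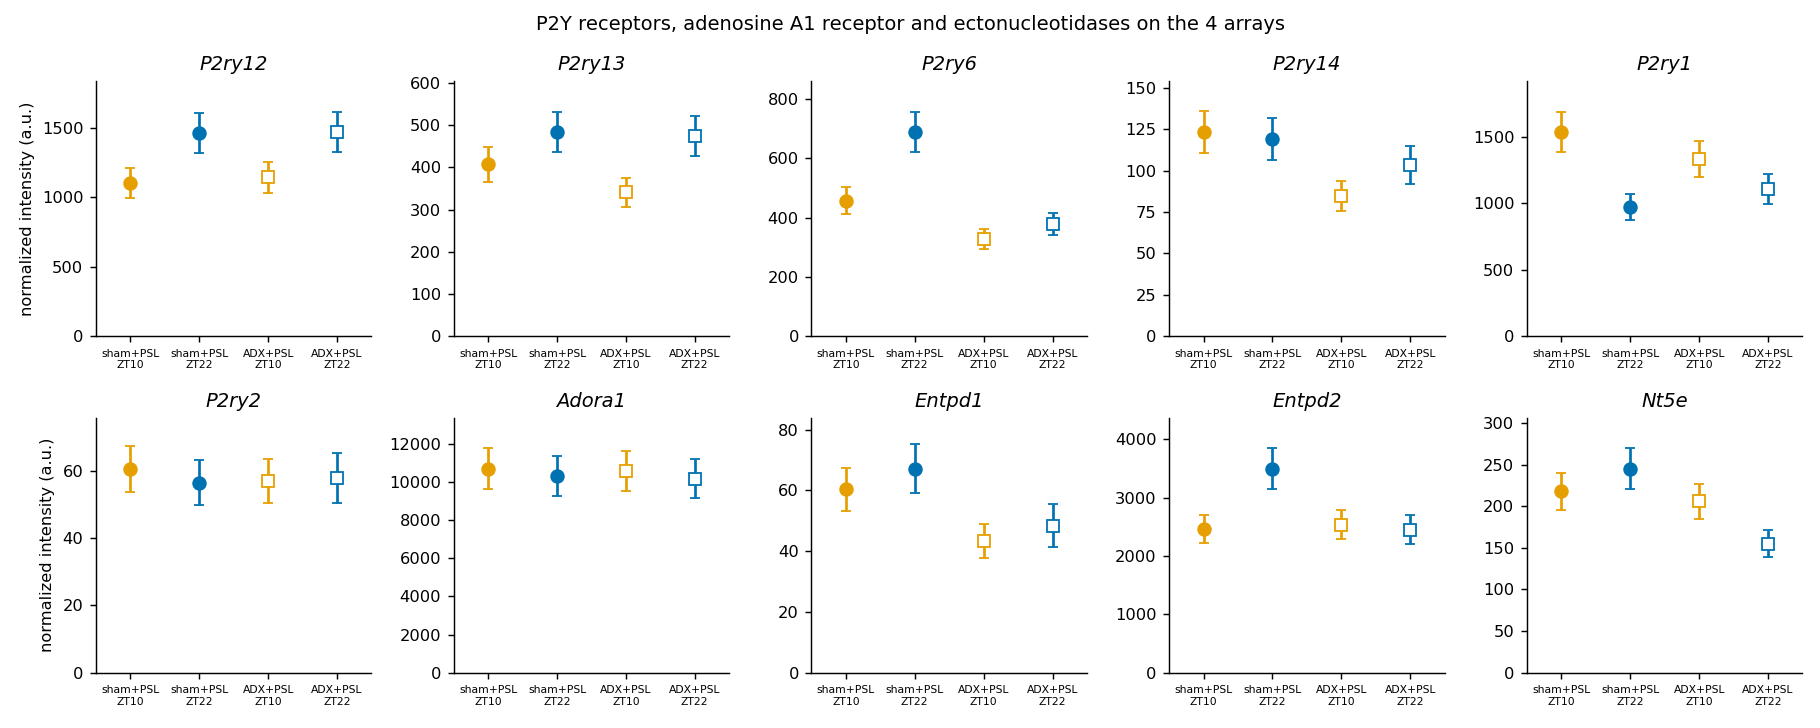
Normalized intensity (arbitrary units, linear axes from 0) of each of the 10 genes on the 4 arrays, with circles for sham+PSL, squares for ADX+PSL, orange for ZT10 and blue for ZT22, and bars for the error that the software assigns to the spots. *P2ry6* has its highest value in sham+PSL mice at ZT22, *P2ry12* is higher on both ZT22 arrays, and *Adora1* and *P2ry2* are nearly level.

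The ADP receptors *P2ry12* and *P2ry13* were higher at ZT22 than at ZT10 under both operations. *P2ry12*, the receptor by which surveying microglia detect ADP, had levels of 1103 at ZT10 and 1461 at ZT22 in sham+PSL mice, and of 1142 at ZT10 and 1469 at ZT22 in ADX+PSL mice. Both ZT22 arrays lay above both ZT10 arrays, and the values at 1 time hardly differed between the operations. The ratio of ZT22 to ZT10 was 1.33 in sham+PSL mice and 1.29 in ADX+PSL mice, with log2 ratios of ZT10 over ZT22 of -0.41 ± 0.20 and -0.36 ± 0.20. The difference between these log2 ratios was -0.04 ± 0.29. Among all probes, 13.4% had a ratio at least as far from 1 in sham+PSL mice and 13.6% in ADX+PSL mice. ADX+PSL over sham+PSL gave log2 ratios of 0.05 ± 0.20 at ZT10 and 0.01 ± 0.20 at ZT22, and 79.9% and 97.5% of all probes lay at least as far from 0.

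*P2ry13*, a second ADP receptor of microglia, whose probe lies next to that of *P2ry12*, had 408 at ZT10 and 484 at ZT22 in sham+PSL mice, and 341 at ZT10 and 474 at ZT22 in ADX+PSL mice. Its order over time was that of *P2ry12*, and its lowest value was in ADX+PSL mice at ZT10. The ratio of ZT22 to ZT10 was 1.19 in sham+PSL mice and 1.39 in ADX+PSL mice, with log2 ratios of ZT10 over ZT22 of -0.25 ± 0.20 and -0.48 ± 0.21. *P2ry12* and *P2ry13* were thus 2 of 10 members with both ZT22 arrays above both ZT10 arrays, and 15.5% of all probes had this order. The opposite order, with both ZT22 arrays below both ZT10 arrays, was seen for *P2ry1* and *Adora1*, 2 of 10, and for 18.2% of all probes.

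*P2ry6*, the UDP receptor linked to microglial phagocytosis, differed most between the arrays among the members, with a ratio of highest to lowest of 2.10. Its levels were 457 at ZT10 and 689 at ZT22 in sham+PSL mice, and 328 at ZT10 and 378 at ZT22 in ADX+PSL mice. Both ADX+PSL arrays lay below both sham+PSL arrays, and within each operation the ZT22 array was the higher of the pair. The ratio of sham+PSL to ADX+PSL was 1.40 at ZT10 and 1.82 at ZT22, with log2 ratios of ADX+PSL over sham+PSL of -0.48 ± 0.20 and -0.87 ± 0.20. At ZT22 2.53% of all probes lay at least as far from 0, and 10.3% at ZT10. The ratio of ZT22 to ZT10 was 1.51 in sham+PSL mice, just past the 1.5-fold limit, and 1.15 in ADX+PSL mice, with log2 ratios of ZT10 over ZT22 of -0.59 ± 0.20 and -0.21 ± 0.21. These differed by -0.38 ± 0.29, and 22.7% of all probes differed by at least as much.

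The *P2ry6* probe was printed 10 times on each array, which shows the precision of a measurement on 1 RNA. The processed signals, not normalized between arrays, ran from 436 to 502 with a median of 466 in sham+PSL mice at ZT10, and from 647 to 695 with a median of 660 at ZT22. In ADX+PSL mice they ran from 299 to 355 with a median of 311 at ZT10, and from 345 to 429 with a median of 402 at ZT22. The SD over the 10 spots was 20.9, 16.7, 20.3 and 23.7 in the same order. On the log2 scale this SD lay between 0.04 and 0.09, beside the assigned error of 0.20 to 0.21 for a log2 ratio of *P2ry6*. The spots of the sham+PSL arrays overlapped with those of no other array, and the spots of both ADX+PSL arrays overlapped slightly. Spots of 1 array share 1 RNA and are no replicates of a condition.

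**Figure D2:**
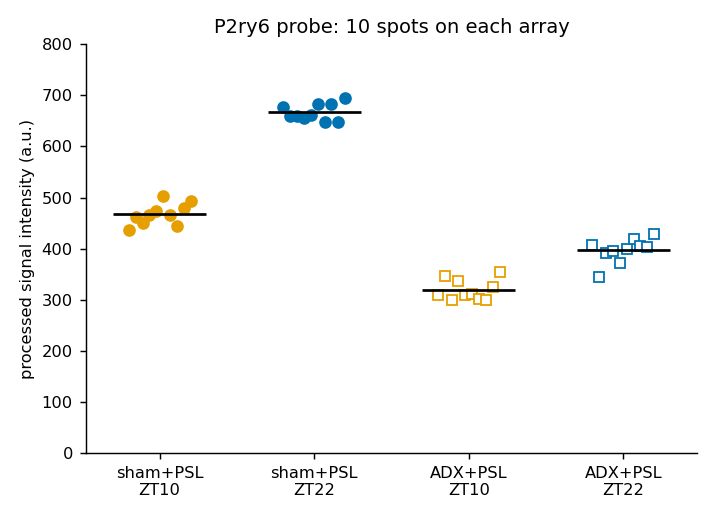
Processed signal (arbitrary units, linear axis from 0, not normalized between arrays) of the 10 spots of the *P2ry6* probe on each array, with the line at their mean. The 10 spots of sham+PSL at ZT22 lie between 647 and 695, above the spots of the other arrays.

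*P2ry14*, a receptor for UDP-glucose and related sugars, had 123 at ZT10 and 119 at ZT22 in sham+PSL mice, and 84.9 at ZT10 and 103 at ZT22 in ADX+PSL mice. Both ADX+PSL arrays lay below both sham+PSL arrays, with the lowest value at ZT10. Sham+PSL over ADX+PSL was 1.45 at ZT10 and 1.15 at ZT22, with log2 ratios of ADX+PSL over sham+PSL of -0.54 ± 0.22 and -0.21 ± 0.22, the latter within the error of the spots. The first depended on the background correction and was -0.31 for signals without it.

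*P2ry1*, an ADP receptor that couples to phospholipase C and is known from astrocytes and sensory neurons, had the reverse order over time of *P2ry12*. Its levels were 1540 at ZT10 and 972 at ZT22 in sham+PSL mice, and 1335 at ZT10 and 1110 at ZT22 in ADX+PSL mice. Both ZT10 arrays were above both ZT22 arrays, and the ADX+PSL values lay between those of sham+PSL mice. ZT10 over ZT22 was 1.58 in sham+PSL mice and 1.20 in ADX+PSL mice, with log2 ratios of 0.66 ± 0.20 and 0.27 ± 0.20. The difference between these was 0.40 ± 0.29, and 21.5% of all probes differed by at least as much. ADX+PSL over sham+PSL was -0.21 ± 0.20 at ZT10 and 0.19 ± 0.20 at ZT22 on the log2 scale.

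*P2ry2*, a receptor for ATP and UTP, had 60.5 at ZT10 and 56.4 at ZT22 in sham+PSL mice, and 56.9 at ZT10 and 57.8 at ZT22 in ADX+PSL mice. *Adora1*, the inhibitory adenosine receptor, had 10710 at ZT10 and 10332 at ZT22 in sham+PSL mice, and 10582 at ZT10 and 10186 at ZT22 in ADX+PSL mice. The 4 arrays were nearly level for both genes, with a ratio of highest to lowest of 1.07 for *P2ry2* and 1.05 for *Adora1*, and none of their log2 ratios exceeded the error of the spots. The order of the *Adora1* arrays over time, ZT10 above ZT22, therefore rests on differences within that error.

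Of the enzymes, *Entpd1* encodes CD39, which takes ATP and ADP to AMP and is carried by microglia and vessels. Its levels were 60.4 at ZT10 and 67.2 at ZT22 in sham+PSL mice, and 43.3 at ZT10 and 48.4 at ZT22 in ADX+PSL mice. Both ADX+PSL arrays lay below both sham+PSL arrays, by a similar ratio at either time. Sham+PSL over ADX+PSL was 1.39 at ZT10 and at ZT22, with log2 ratios of ADX+PSL over sham+PSL of -0.48 ± 0.25 and -0.47 ± 0.27. Without background correction these were -0.18 and -0.15.

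*Entpd2*, an ectonucleotidase that prefers ATP, had 2465 at ZT10 and 3498 at ZT22 in sham+PSL mice, and 2539 at ZT10 and 2451 at ZT22 in ADX+PSL mice. The sham+PSL array at ZT22 stood above the other 3, which were close to each other. Its level was 1.42 times that of sham+PSL mice at ZT10 and 1.43 times that of ADX+PSL mice at ZT22, with log2 ratios of ZT10 over ZT22 of -0.51 ± 0.20 and of ADX+PSL over sham+PSL of -0.51 ± 0.20. The log2 ratio of ZT10 over ZT22 in ADX+PSL mice was 0.05 ± 0.20, so that the time-of-day ratios differed by -0.56 ± 0.29 between the operations, and 11.1% of all probes differed by at least as much.

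*Nt5e* encodes CD73, which forms adenosine from AMP. Its levels were 218 at ZT10 and 245 at ZT22 in sham+PSL mice, and 206 at ZT10 and 155 at ZT22 in ADX+PSL mice. Both ADX+PSL arrays lay below both sham+PSL arrays, and the value of ADX+PSL mice at ZT22 stood lowest. Sham+PSL over ADX+PSL was 1.58 at ZT22 and 1.06 at ZT10, with log2 ratios of ADX+PSL over sham+PSL of -0.66 ± 0.21 and -0.08 ± 0.21. The time-of-day ratio ran in opposite directions, with log2 ratios of ZT10 over ZT22 of -0.17 ± 0.21 in sham+PSL mice, within the error of the spots, and 0.41 ± 0.21 in ADX+PSL mice. They differed by -0.58 ± 0.29, and 10.1% of all probes differed by at least as much. Since CD73 is also carried by fibroblasts, the meningeal fibroblast list bears on these values: 6 of 6 of its genes were lower in ADX+PSL mice past 1.5-fold at ZT10, with a median log2 ratio of -1.78, and 4 of the 5 measured at ZT22, with a median of -1.25. Its part in the *Nt5e* values was not tested.

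**Figure D3:**
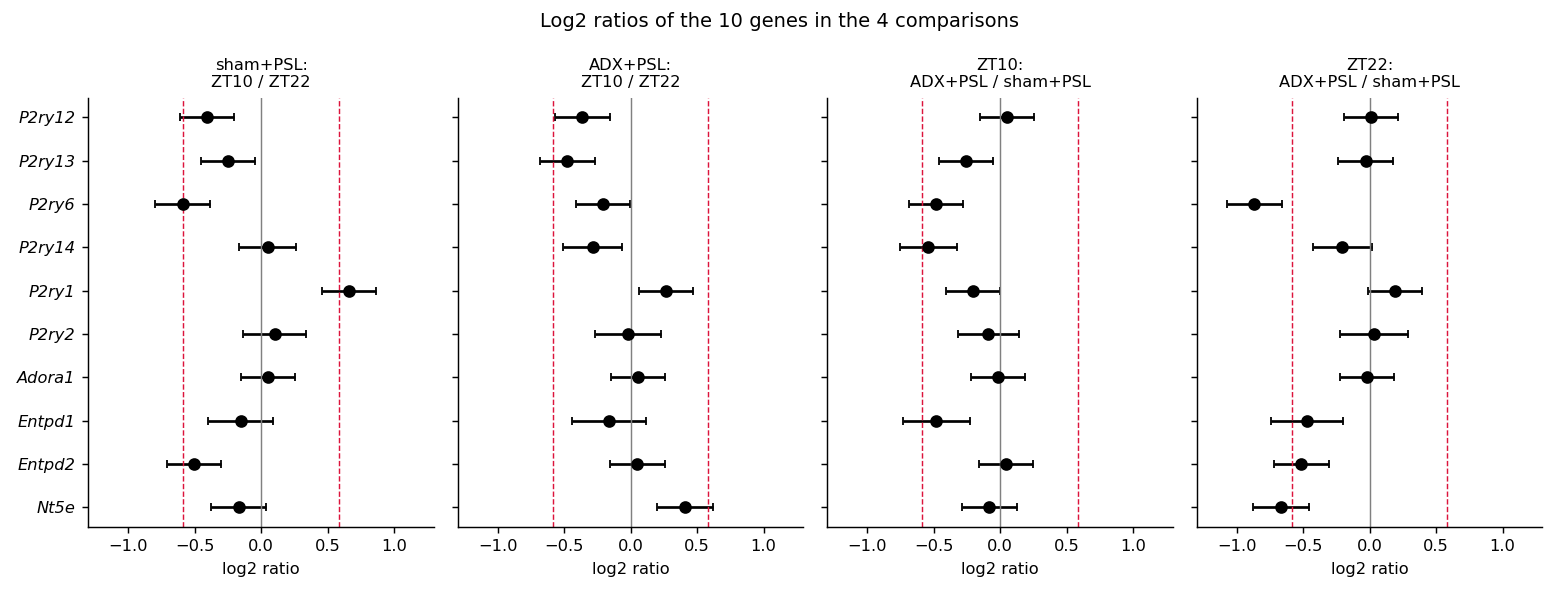
Log2 ratios of the 10 genes (horizontal axes) in the 4 comparisons, with bars for the combined error of the spots and dashed lines at 1.5-fold in either direction. *P2ry1* and *P2ry6* pass the lines in the time comparison of sham+PSL mice, *P2ry6* and *Nt5e* in the comparison of the operations at ZT22, and no gene in the other comparisons.

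Counted over the members, 2 of 10 were past 1.5-fold between ZT10 and ZT22 in sham+PSL mice, *P2ry1* higher and *P2ry6* lower at ZT10, where 6.49% of all probes well above background on both arrays were. In ADX+PSL mice 0 of 10 were, against 5.17% of all probes. Between the operations 0 of 10 were past 1.5-fold at ZT10, against 7.03%, and 2 of 10 at ZT22, *P2ry6* and *Nt5e*, both lower in ADX+PSL mice, against 6.31%. With 10 members, 1 gene more or less moves the share by 10 percentage points.

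Past 2-fold, the limit of the study's methods, were 0 of 10 members in each of the 4 comparisons. The shares of all probes were 2.0% for time in sham+PSL mice, 1.54% for time in ADX+PSL mice, 2.10% between the operations at ZT10 and 1.79% at ZT22. Both ADX+PSL arrays lay below both sham+PSL arrays for 4 of 10 members, *P2ry6*, *P2ry14*, *Entpd1* and *Nt5e*, and for 16.1% of all probes, and above them for 0 of 10 members and 18.9% of all probes. The log2 ratios between the operations of *Nt5e* at ZT10, -0.08 ± 0.21, and of *P2ry14* at ZT22, -0.21 ± 0.22, were within the error of the spots. Those of *Entpd1* shrank to -0.18 at ZT10 and -0.15 at ZT22 without background correction. The median log2 ratio of ADX+PSL over sham+PSL was -0.15 over the members at ZT10 and -0.12 at ZT22, and over all probes 0.00 and 0.01. For ZT10 over ZT22 it was -0.16 over the members in sham+PSL mice and -0.09 in ADX+PSL mice, and over all probes 0.01 and 0.00.

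**Figure D4:**
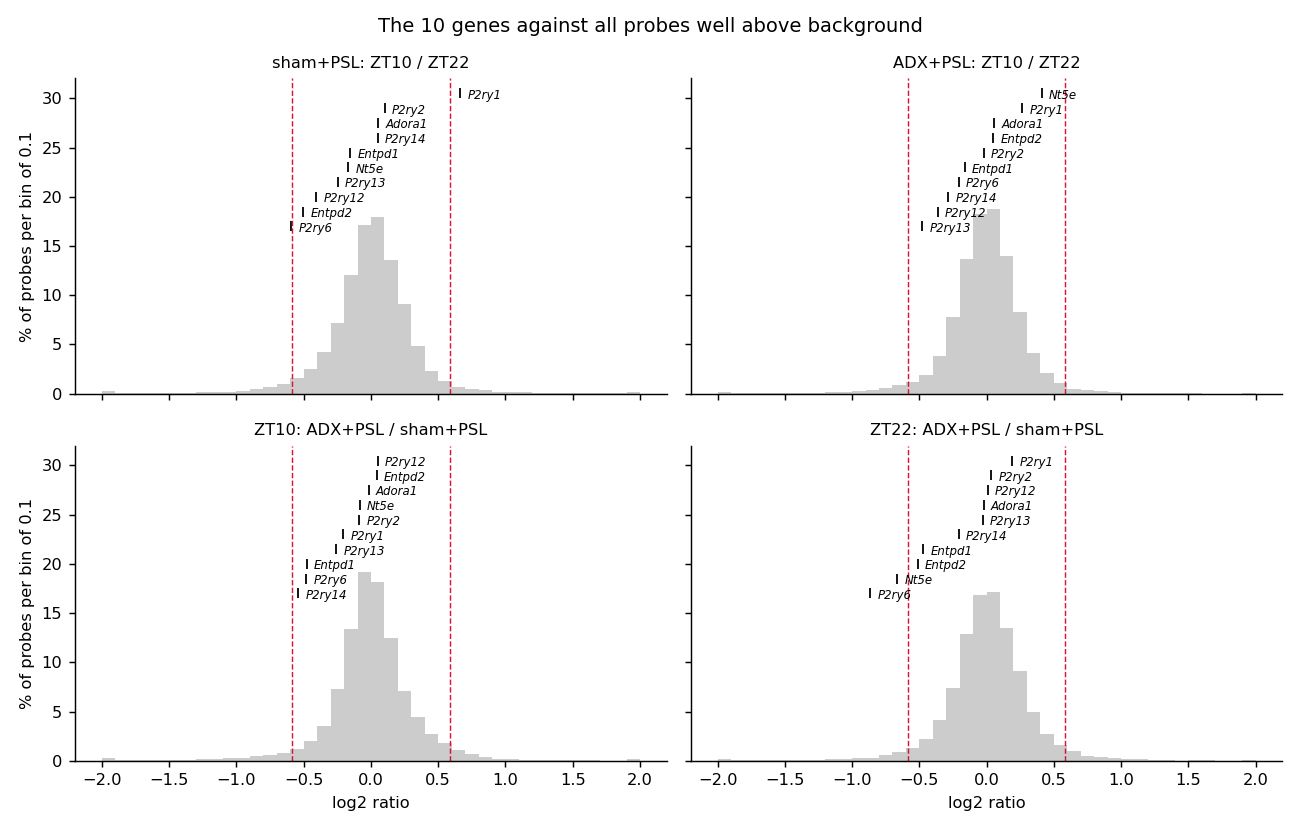
Distribution of the log2 ratios of all probes well above background on both arrays (grey bars, percent of probes per bin of 0.1, values beyond 2 in the end bins) in the 4 comparisons, with ticks for the 10 genes and dashed lines at 1.5-fold; the height of a tick only separates the names. *P2ry1* and *P2ry6* lie at opposite edges in sham+PSL mice over time, and *P2ry6* lies farthest out in the comparison of the operations at ZT22.

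*P2ry12*, *P2ry13* and *P2ry6* are carried in the cord mainly by microglia, so they were set beside 14 microglial marker genes, of which 14 were measured on all 4 arrays. In sham+PSL mice 14 of 14 marker genes were lower at ZT10 than at ZT22, as were 48.4% of all probes, with log2 ratios between -0.67 and -0.21 and a median of -0.46. In ADX+PSL mice 12 of 14 were lower at ZT10, as were 49.8% of all probes, with a median of -0.28. The summed level of the 14 genes was 123419 at ZT10 and 161494 at ZT22 in sham+PSL mice, and 139623 at ZT10 and 150226 at ZT22 in ADX+PSL mice. *Itgam* and *Siglech* weighed most in these sums. At ZT10 they had 44355 and 28216 in sham+PSL mice, and 51198 and 45024 in ADX+PSL mice. The sum at ZT10 was thus higher in ADX+PSL mice although 11 of 14 genes were lower there. The log2 ratios of *P2ry12* lay close to these medians, 0.05 above the first and 0.08 below the second, with 9 and 5 of the 14 marker genes below it. Those of *P2ry6* lay 0.13 below the first and 0.07 above the second. The log2 ratios of *P2ry13* lay 0.21 above the first and 0.20 below the second, with 13 and 3 of the 14 marker genes below it. *P2ry1* was above 14 of 14 marker genes in both comparisons over time. In ADX+PSL mice the highest marker gene had 0.15, within the error of the *P2ry1* ratio of 0.27 ± 0.20.

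Between the operations, 11 of 14 microglial genes were lower in ADX+PSL mice at ZT10, as were 50.2% of all probes, with a median log2 ratio of -0.27. At ZT22 it was 13 of 14, and 48.0% of all probes, with a median of -0.37. Past 1.5-fold was 1 of 14 at ZT10, *Siglech*, a microglial lectin, which was higher in ADX+PSL mice with a log2 ratio of 0.67, and 1 of 14 at ZT22, *C1qc*, which was lower. *P2ry12* did not share this order, since it lay 0.33 above the median at ZT10 and 0.38 above it at ZT22, where 13 of 14 marker genes were below it. *P2ry13* lay 0.02 above the median at ZT10, with 7 of 14 marker genes below it, and 0.34 above it at ZT22, with 13 of 14 below. *P2ry6* lay 0.21 below the median at ZT10 and 0.50 below it at ZT22, where 1 of 14 marker genes, *C1qc*, with a log2 ratio of -0.92, was below it. *C1qc*, a complement subunit, had 2196 at ZT10 and 3402 at ZT22 in sham+PSL mice, and 1490 at ZT10 and 1798 at ZT22 in ADX+PSL mice, the same order of arrays as *P2ry6*. *C1qc* was not alone in this. Both ADX+PSL arrays lay below both sham+PSL arrays for 7 of 14 microglial genes, as for *P2ry6*, and for 16.1% of all probes. They lay above for 1 of 14 and for 18.9% of all probes. This order takes no account of the gap, which could be narrow. *Irf8* had 683 in ADX+PSL mice at ZT22 and 686 in sham+PSL mice at ZT10, and *Cx3cr1* had 5560 and 5633. On the same arrays *C1qc* had 1798 and 2196, and *P2ry6* had 378 and 457. In these slices, fewer cells of a type and less RNA per cell cannot be told apart. The part of the microglial share in the receptor values was not tested.

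**Figure D5:**
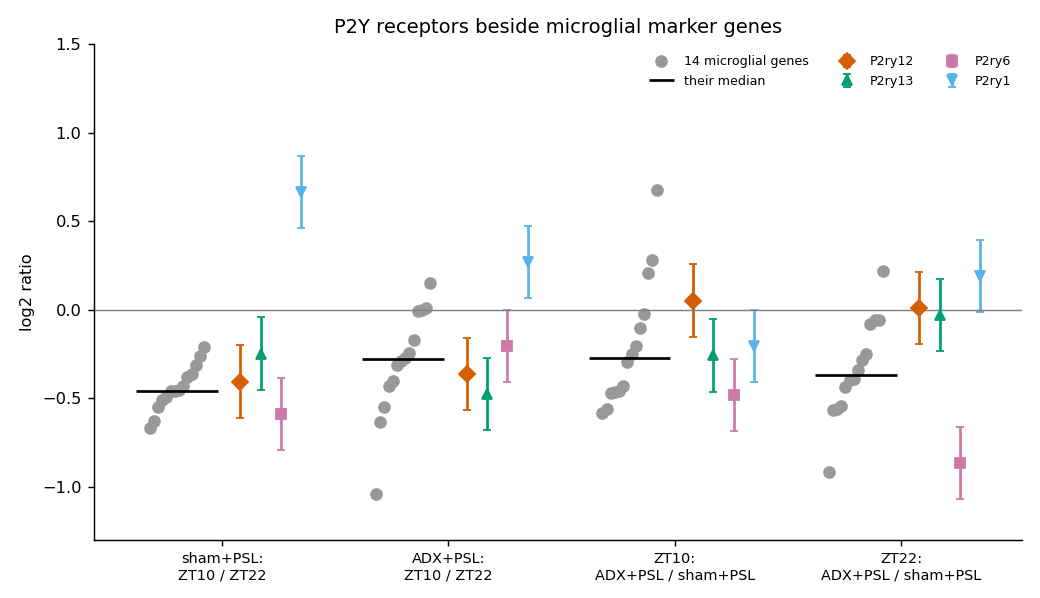
Log2 ratios (vertical axis) of 14 microglial marker genes (grey points, line at their median) beside *P2ry12*, *P2ry13*, *P2ry6* and *P2ry1* (coloured points, bars for the combined error of the spots) in the 4 comparisons. *P2ry12* lies near the microglial median over time and above it between the operations, *P2ry6* lies below it between the operations, and *P2ry1* lies above every marker gene over time.

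Macrophages outside the cord's tissue also carry P2Y receptors. Of 5 marker genes, *Cd163* stayed below the detection flag throughout, 3 were measured on all 4 arrays, and the summed level of these 3 was 501 at ZT10 and 294 at ZT22 in sham+PSL mice, and 165 at ZT10 and 206 at ZT22 in ADX+PSL mice. In sham+PSL mice the 4 macrophage genes measured were higher at ZT10, with a median log2 ratio of 0.84, which is the reverse of *P2ry6*, *P2ry12* and *P2ry13*. In ADX+PSL mice 3 of 3 measured were lower at ZT10, with a median of -0.31, the same direction as these receptors. Between the operations 4 of 4 were lower in ADX+PSL mice at ZT10, with a median of -1.51, beside values of -0.48 for *P2ry6* and 0.05 for *P2ry12*. At ZT22 3 of 3 were lower, with a median of -0.34, beside -0.87 for *P2ry6* and 0.01 for *P2ry12*. The part of macrophages in the receptor values was not tested. The 8 astrocyte genes, which bear on *Entpd2* and *P2ry1*, had median log2 ratios of -0.15 for time in sham+PSL mice, 0.07 for time in ADX+PSL mice, 0.07 between the operations at ZT10 and -0.05 at ZT22. Single genes were not all level. In the same order, they ranged from -0.50 to 0.18, from -1.07 to 0.51, from -0.86 to 0.45 and from -0.20 to 0.06. The 5 endothelial genes, which bear on *Entpd1*, had medians of 0.03 at ZT10 and 0.20 at ZT22 for ADX+PSL over sham+PSL. They ranged from -0.24 to 0.30 at ZT10 and from -0.75 to 0.53 at ZT22. *Entpd1* had -0.48 and -0.47, and the 14 microglial genes had medians of -0.27 and -0.37. Over time in sham+PSL mice *Entpd1*, with -0.15, was above 14 of 14 microglial genes. The highest of these had -0.21, which is within the error of 0.24 of the *Entpd1* ratio. The part of either cell type in the *Entpd1* values was not tested.

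Of the other genes of the pathway, a handful were past 1.5-fold. Of 7 further P2Y-type receptors 3 were measured on all 4 arrays, and 1 of them was past the limit: *Gpr17*, a receptor of oligodendrocyte precursors, had 10722 at ZT10 and 16673 at ZT22 in sham+PSL mice, and 12361 at ZT10 and 13223 at ZT22 in ADX+PSL mice. *Gpr34*, a microglial receptor of the same family, stayed just within the limit, with 523, 776, 579 and 543 in the same order. For both, the highest value was in sham+PSL mice at ZT22, as for *P2ry6* and *Entpd2*. The third, *P2ry10b*, was within the limit by its probe measured on all 4 arrays, with 29.8, 27.0, 28.2 and 32.8. Another probe of this gene did not give the same picture. It had 64.3 and 57.8 on the sham+PSL arrays and stayed below the detection flag on the ADX+PSL arrays.

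Of 3 other adenosine receptors, *Adora3*, which is expressed by microglia, had 256 at ZT10 and 416 at ZT22 in sham+PSL mice, past the limit, and 243 at ZT10 and 307 at ZT22 in ADX+PSL mice. Its log2 ratio of ZT10 over ZT22 was -0.70 in sham+PSL mice and -0.34 in ADX+PSL mice. *Adora2a* and *Adora2b* were within 1.5-fold in all 4 comparisons. Of 7 P2X channels, 1 was past the limit in each comparison, *P2rx7* by its brightest probe, with 464, 301, 230 and 563 in the same order of arrays, but another probe of the gene measured on all 4 arrays gave 65.6, 77.9, 53.0 and 66.0, within the limit throughout.

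Of 18 other enzymes and carriers of nucleotides and adenosine, 16 were measured in each comparison over time and 15 in each between the operations, and 1 was past 1.5-fold in each, a share close to that of all probes. *Enpp3*, an ectonucleotide pyrophosphatase, had 56.5 at ZT10 and 108 at ZT22 in sham+PSL mice, and 56.4 at ZT10 and 69.8 at ZT22 in ADX+PSL mice, so that sham+PSL mice at ZT22 stood above the other arrays as for *Entpd2*. *Ada*, which degrades adenosine, had 210 at ZT10 and 171 at ZT22 in sham+PSL mice, and 105 at ZT10 and 151 at ZT22 in ADX+PSL mice, with the lowest value in ADX+PSL mice at ZT10. *Entpd8* was well above background on both ADX+PSL arrays only, with 13.9 at ZT10 and 25.5 at ZT22. Of 10 G proteins and phospholipase C effectors that P2Y receptors use, 9 were measured, and 0 of 9 were past the limit in any of the 4 comparisons.

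The genes whose pattern over the 4 arrays was most like that of *P2ry12* were *Vrk2*, *Kif1c* and *4930534B04Rik*, among 19060 genes well above background on all 4 arrays, with distances of 0.01, 0.04 and 0.05 on the log2 scale after each gene's own mean was removed. *Vrk2* had 85.5 at ZT10 and 112 at ZT22 in sham+PSL mice, and 87.9 at ZT10 and 112 at ZT22 in ADX+PSL mice. Within a distance of 0.1 lay 36 genes. The neighbouring *P2ry13* was at rank 695. These distances are far below the error of the spots for a log2 ratio of *P2ry12*, 0.20, so the order among the nearest genes is within measurement error, and the likeness is over 4 arrays only.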

How the data were processed

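Total RNA from lumbar spinal slices was labelled with Cy3 and hybridized to 60-mer 44K mouse arrays, 1 array for each of 4 conditions. The authors deposited intensities on the linear scale that were quantile-normalized over the 4 arrays, 1 value per probe, and the spot intensities of Feature Extraction (version 10.7.1.1 in the file headers, 9.5.1.1 in the labels), which are background-corrected within an array. Quantile normalization forces 1 distribution on all arrays, so a shift common to most genes cannot be seen. The labels and the methods name different RNA reagents.

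Levels were taken from the deposited table, and flags and spot errors from the array files. Recomputed log2 levels differed from the deposited ones by a median of 0.0036. Ratios used probes well above background on both arrays. Counting past a fold was tested on simulated data. For genes with several probes the brightest was used. The text names all members, the genes of the pathway lists past 1.5-fold and the 3 genes nearest to *P2ry12*. *Gpr34*, *P2ry10b*, *C1qc*, *Siglech*, *Sgk1*, *Itgam*, *Irf8*, *Cx3cr1* and the single clock genes were named after their values were seen. So were the motifs and the sequences shown. The members and lists were chosen with earlier results of these data known. The arrays lay on 1 slide. Whether the mice, operations and RNA preparations of the conditions shared a batch is not given in the sources used here, and with 1 array per condition such a batch and the condition cannot be told apart. Alternatives were other normalizations, background corrections, filters, probe rules and a 2-fold limit, computed with R 4.3.3, limma 3.58.1, Python 3.11.15, numpy 2.4.6 and pandas 2.3.3.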

Additional observations from a re-analysis of the deposited data

How the results depend on the processing

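No log2 ratio of a member outside the error of its spots changed its sign, and 275 of 280 recomputed log2 ratios stayed within that error of the value given. The other 5 belonged to the dim probes of *P2ry14* and *Entpd1* for ADX+PSL over sham+PSL. At ZT10 *P2ry14* was -0.31 without background correction and -0.32 with normexp, and *Entpd1* was -0.18 without it; at ZT22 *Entpd1* was -0.15 without it and -0.19 with normexp. Counts past 1.5-fold moved more. Over time in sham+PSL mice the count of 2 became 0 without background correction, 0 with normexp, 0 at the 2-fold limit and 1 (*P2ry1*) without normalization between arrays. Over time in ADX+PSL mice the count of 0 became 1 (*P2ry13*) without normalization. Between the operations at ZT22 the count of 2 became 1 (*P2ry6*) without background correction, 1 with normexp, 1 without normalization and 0 at the 2-fold limit. The 2 members with both ZT22 arrays below both ZT10 arrays became 1 (*P2ry1*) without normalization and 3 (with *P2ry2*) with the 75th percentile shift, with normexp and without background correction, and the 2 with ZT22 above became 3 (with *Entpd2*) without normalization. Averaging the probes of a gene could change nothing, since each member has 1. The cause was not tested, except that a higher limit passes fewer genes. Leaving normalization out moved the median of all probes by -0.10 over time in ADX+PSL mice and by 0.11 between the operations at ZT22. The counts for the order of arrays and without outlier spots were added after seeing the data. No paired analysis was possible because each condition has 1 array, and leaving out a replicate was not possible for the same reason. Precision is limited by there being 1 array per condition, and the spot error leaves out differences between mice.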
